A study of Mus musculus with 9 samples.

Results

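Genes for cytokines that macrophages use to steer inflammation were followed in macrophages of the inflamed mouse colon. They were Il12a, Il12b, Il23a, Il27 and Ebi3, which encode the subunits of the IL-12 family, together with Il6, Lif, Il10, Tnf and Il15. A gene was taken up when a probe set of the array carried its symbol and no other, and where a gene had several such probe sets the brightest over the 9 arrays stood for it. The 10 genes were chosen by name out of 22180 genes with a probe set of their own, and all 10 symbols matched a gene of the RefSeq annotation GRCm38.p6.

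The arrays covered macrophages of 4 LysMCre;Arntfl/fl mice and 5 LysMCre mice, with 1 array per mouse. Arnt encodes the shared partner of the hypoxia-inducible factors HIF-1α and HIF-2α. In LysMCre;Arntfl/fl mice its floxed alleles were deleted by a Cre recombinase under the control of the lysozyme M gene, which acts in neutrophils and in macrophages. LysMCre mice carried the same Cre with intact Arnt alleles, so that Cre itself was common to both genotypes. All animals were females on a C57BL/6 background and were housed in mixed cages, and the sources used here do not give their ages. Each received 3% dextran sodium sulfate (DSS), which injures the colonic epithelium, in the drinking water for 5 days and then plain water for 3 days, and on Day 8 cells bearing CD45, CD11b and F4/80 were sorted from the lamina propria.

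The cytokines of the IL-12 family are pairs of chains. The p40 chain, encoded by Il12b, forms IL-12 with p35 (Il12a) and IL-23 with p19 (Il23a), whereas the EBI3 chain forms IL-27 with p28 (Il27) and IL-35 with p35. IL-12 drives interferon-γ in T cells and NK cells, and IL-23 sustains IL-17 production. IL-27 restrains T cell responses in many settings. TNF and IL-6 are central inflammatory mediators, and IL-10 is the main brake that keeps intestinal macrophages from reacting to the flora.

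The stretches upstream of 3 of these genes are given here because Il6 and Il12b had the largest negative differences of the 10 genes and because Tnf differed little. They are the 250 bases before the RefSeq start site in GRCm38.p6, written 5′ to 3′ on the strand of the gene, at chr5:30012864-30013113 (plus strand) for Il6, chr11:44399813-44400062 (plus strand) for Il12b and chr17:35202008-35202257 (minus strand) for Tnf. Capitals mark matches, on either strand, to the kappa B consensus of NF-κB or to the AP-1 motif TGANTCA.
Il6: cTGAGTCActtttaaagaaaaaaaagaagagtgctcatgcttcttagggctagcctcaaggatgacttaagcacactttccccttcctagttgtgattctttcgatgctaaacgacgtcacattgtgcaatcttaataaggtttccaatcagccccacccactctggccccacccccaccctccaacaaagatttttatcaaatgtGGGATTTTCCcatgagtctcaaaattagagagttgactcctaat
Il12b: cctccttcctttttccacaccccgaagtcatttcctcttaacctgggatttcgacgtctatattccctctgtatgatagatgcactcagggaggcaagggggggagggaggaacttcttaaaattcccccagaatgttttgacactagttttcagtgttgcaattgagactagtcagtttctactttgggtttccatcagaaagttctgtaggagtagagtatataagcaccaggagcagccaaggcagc
Tnf: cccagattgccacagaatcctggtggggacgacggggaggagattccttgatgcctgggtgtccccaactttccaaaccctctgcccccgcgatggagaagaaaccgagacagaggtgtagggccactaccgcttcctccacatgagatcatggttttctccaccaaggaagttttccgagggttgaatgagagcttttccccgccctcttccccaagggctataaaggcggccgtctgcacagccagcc

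Il6 held a kappa B match, GGGATTTTCC, 44 to 35 bases before the start and an AP-1 match, TGAGTCA, 249 to 243 bases before it. In 32851 RefSeq promoters of the same length, 3.9% held a kappa B match and 6.75% an AP-1 match. Neither Il12b nor Tnf had a match to these motifs, to the IRF repeat, GAAA and GAAA with any 2 bases between them (2.98% of promoters), or to the hypoxia response core ACGTG or GCGTG (38.6%). Of the other members with an entry, Ebi3 held a kappa B match, GGGGCTTCCC, 44 to 35 bases before its start. Lif held an AP-1 match, TGACTCA, at 228 to 222 bases and a hypoxia core, CACGC on this strand, at 204 to 200 bases, and Il12a held a core, GCGTG, 216 to 212 bases before the second of its start sites. A match describes these letters only and does not show that a factor binds there.

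Arnt had log2 values of 8.77, 8.60, 8.84 and 8.70 in LysMCre;Arntfl/fl macrophages, against 9.54, 9.44, 9.36, 9.31 and 9.31 in LysMCre macrophages. The genotypes did not overlap (log2 fold change −0.66, adjusted p = 0.0214 from limma), as the labels have it. All 12 macrophage markers, among them Adgre1, Itgam and Ptprc, lay above the level of unspecific signal on all 9 arrays. That level, the 95th percentile of 1405 probe sets for odorant and pheromone receptors, lay between 5.97 and 6.21. Lying above it shows that these messages were measured, and it does not establish which cells were sorted. Log2 fold changes of the 12 were positive for 4 and negative for 8 (median −0.16). Itgam (0.44) and Cd14 (0.12) were higher without overlap, as were 2.52% of all probe sets. Cx3cr1 (−0.83) was lower without overlap, as were 2.22%. C1qa (−0.56), C1qc (−0.52) and C1qb (−0.43) had lower means too, with overlapping genotypes. Markers of other cells exceeded that level on every array too: 11 of 13 neutrophil, 6 of 9 epithelial and 7 of 7 fibroblast markers. So did 5 of 6 B and plasma cell, 6 of 7 monocyte, 7 of 9 dendritic cell and 4 of 5 endothelial markers. Of the T and NK cell markers 5 of 8 did, among them Nkg7 and Cd3e, whereas Ncr1 exceeded it on none. Of 6 mast cell markers Kit did, Mcpt1 exceeded it on 6 of 9 arrays, and Mcpt4 and Fcer1a on none. Of 5 eosinophil markers Prg2 did, whereas Epx exceeded it on none. The mean of the 13 neutrophil markers ranged from 9.79 to 10.57 in LysMCre;Arntfl/fl and from 8.04 to 9.47 in LysMCre arrays, without overlap. All 13 had a positive log2 fold change (median 1.44), and Ngp alone passed the test. The part of these cells in the cytokine results was not tested. In such sorted bulk samples, a lower value from fewer cells of a type and one from less RNA per cell cannot be told apart.

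None of the 10 cytokine genes passed the test, for which limma's p, adjusted over all 34365 probe sets by Benjamini-Hochberg, had to lie under 0.05 and the fold change over 1.5. Of all probe sets, 0.294% passed it, 0.143% as higher and 0.151% as lower in LysMCre;Arntfl/fl macrophages. At an unadjusted p below 0.05 in limma there were 4 of the 10 genes, Il6, Il12b and Il10 with lower and Il12a with higher means in LysMCre;Arntfl/fl macrophages. The threshold was reached by 11.5% of all probe sets, and by 2980 of the 22180 genes taken by their brightest probe set. The methods' t-test likewise left 0 of 10 after adjustment and gave 3, Il6, Il12b and Il10, at the unadjusted threshold. Il6 was the member whose genotypes did not overlap, against 2.22% of probe sets without overlap in that direction and 4.73% in either. Log2 fold changes were negative for 7 and positive for 3 members, with a median of −0.30, while the median over all probe sets was 0.01 and 51.8% were positive. All 10 representative probe sets lay above the level of unspecific signal on all 9 arrays, so that each of these messages was measured in both genotypes.

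**Figure D1:**
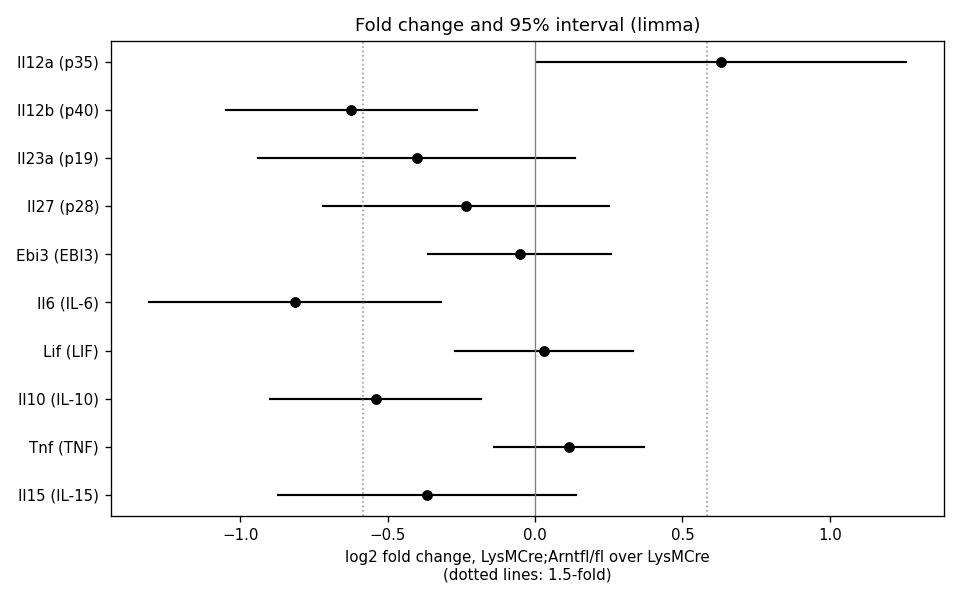
Log2 fold change of each cytokine gene, LysMCre;Arntfl/fl over LysMCre, on the horizontal axis, with points for the limma estimate and lines for its 95% interval (n = 4 and 5 arrays). The intervals of Il12b, Il6 and Il10 lie below 0, that of Il12a lies just above it, from 0.01 to 1.26, and the other 6 span 0; dotted lines mark 1.5-fold.

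Among the IL-12 chains, p40 and p35 went opposite ways, although neither passed the test. Il12b (chromosome 11, 44400063 to 44414677), the p40 chain that IL-12 and IL-23 share, had log2 values of 8.49, 7.47, 7.75 and 8.28 in LysMCre;Arntfl/fl macrophages, against 8.42, 8.62, 8.68, 8.50 and 8.89 in LysMCre macrophages. LysMCre;Arntfl/fl replicates 2, 3 and 4 lay below every control, and replicate 1 lay between LysMCre replicates 1 and 4, the lowest of the controls. The means were 8.00 ± 0.47 (SD, n = 4) in LysMCre;Arntfl/fl and 8.62 ± 0.18 (SD, n = 5) in LysMCre macrophages, a 1.54-fold lower value (log2 fold change −0.62, 95% interval −1.05 to −0.20, adjusted p = 0.214 from limma).

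Il12a (chromosome 3, 68690644 to 68698550), the p35 chain, had values of 7.47, 7.57, 7.66 and 8.40 in LysMCre;Arntfl/fl macrophages, against 7.82, 6.46, 6.67, 7.49 and 7.26 in LysMCre macrophages. LysMCre;Arntfl/fl replicate 4 was the highest array and LysMCre replicates 2 and 3 the lowest, while LysMCre replicates 1 and 4 lay among the LysMCre;Arntfl/fl arrays. The means of 7.77 ± 0.42 (SD, n = 4) in LysMCre;Arntfl/fl and 7.14 ± 0.57 (SD, n = 5) in LysMCre macrophages differed 1.55-fold (log2 fold change 0.63, 95% interval 0.01 to 1.26, adjusted p = 0.427 from limma). The spread within LysMCre macrophages was nearly as large as the difference.

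Il23a (chromosome 10, 128296140 to 128298084), the p19 chain of IL-23, had values of 10.52, 10.55, 10.62 and 10.89 in LysMCre;Arntfl/fl macrophages, against 11.60, 10.46, 10.57, 11.64 and 10.96 in LysMCre macrophages. Of the controls, replicates 1 and 4 were the highest of all, and replicate 5 also lay above every LysMCre;Arntfl/fl array. LysMCre replicate 2 was the lowest of all 9 arrays, and LysMCre replicate 3 lay among the LysMCre;Arntfl/fl arrays. The log2 fold change of −0.40 (95% interval −0.94 to 0.14, adjusted p = 0.593 from limma) moved to −0.25 without LysMCre replicate 4 and to −0.55 without LysMCre replicate 2.

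The chains of IL-27 differed little. Il27 (chromosome 7, 126589009 to 126595035), which encodes p28, had values of 8.28, 7.07, 7.95 and 8.19 in LysMCre;Arntfl/fl macrophages, against 8.15, 8.19, 7.80, 8.09 and 8.30 in LysMCre macrophages. Only LysMCre;Arntfl/fl replicate 2 left the range of the controls, and without it the log2 fold change of −0.23 (95% interval −0.72 to 0.25, adjusted p = 0.772 from limma) became 0.034. Its partner Ebi3 (chromosome 17, 55952623 to 55957022) had values of 8.51, 8.03, 8.63 and 8.83 in LysMCre;Arntfl/fl macrophages, against 8.62, 8.59, 8.57, 8.46 and 8.52 in LysMCre macrophages. The SD of the 5 controls was 0.06. LysMCre;Arntfl/fl replicate 2 lay below them and replicates 3 and 4 above them, replicate 3 only by the step from 8.62 to 8.63. The log2 fold change was −0.05 (95% interval −0.36 to 0.26, adjusted p = 0.935 from limma), and 0.11 without LysMCre;Arntfl/fl replicate 2. A second Ebi3 probe set averaged 5.57 ± 0.16 (SD, n = 4) in LysMCre;Arntfl/fl and 5.66 ± 0.09 (SD, n = 5) in LysMCre macrophages and exceeded the unspecific level on 0 arrays.

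Il6 (chromosome 5, 30013114 to 30019975), whose upstream stretch with its kappa B match is shown above, had the largest difference of the 10 genes. It had values of 8.72, 7.62, 8.69 and 8.67 in LysMCre;Arntfl/fl macrophages, against 9.21, 9.04, 8.98, 9.58 and 9.39 in LysMCre macrophages. Every LysMCre;Arntfl/fl array lay below every control, by as little as the step between 8.72 and 8.98, and replicate 2 lay far below the other 3. The means were 8.43 ± 0.54 (SD, n = 4) in LysMCre;Arntfl/fl and 9.24 ± 0.25 (SD, n = 5) in LysMCre macrophages, a 1.76-fold lower value (log2 fold change −0.81, 95% interval −1.31 to −0.32, adjusted p = 0.161 from limma). Without replicate 2 the log2 fold change was −0.55, and the adjusted p over the fits without 1 array ranged from 0.159 to 0.289.

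Lif (chromosome 11, 4257568 to 4272514), a cytokine that signals through the same gp130 chain as IL-6, had overlapping genotypes. Its values were 6.60, 6.79, 6.37 and 6.77 in LysMCre;Arntfl/fl macrophages, against 6.65, 6.86, 6.36, 6.79 and 6.35 in LysMCre macrophages, and the LysMCre;Arntfl/fl arrays lay within the range of the controls. The log2 fold change was 0.03 (95% interval −0.27 to 0.33, adjusted p = 0.966 from limma), an interval that ends well inside 1.5-fold on either side.

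Il10 (chromosome 1, 131019845 to 131024970), the main anti-inflammatory cytokine of the set, had values of 10.99, 10.38, 10.62 and 10.68 in LysMCre;Arntfl/fl macrophages, against 11.35, 11.59, 10.91, 10.92 and 11.26 in LysMCre macrophages. LysMCre;Arntfl/fl replicates 2, 3 and 4 lay below all controls, and replicate 1 lay just above LysMCre replicates 3 and 4. The means were 10.67 ± 0.25 (SD, n = 4) in LysMCre;Arntfl/fl and 11.21 ± 0.29 (SD, n = 5) in LysMCre macrophages, a 1.46-fold lower value (log2 fold change −0.54, 95% interval −0.90 to −0.18, adjusted p = 0.202 from limma). It lay between −0.65 and −0.44 when any 1 array was left out.

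Tnf (chromosome 17, 35199367 to 35202007), encoding tumor necrosis factor, had values of 12.26, 12.26, 12.22 and 12.39 in LysMCre;Arntfl/fl macrophages, against 12.31, 12.37, 11.89, 11.97 and 12.29 in LysMCre macrophages. The LysMCre;Arntfl/fl arrays lay close together at the level of LysMCre replicates 1, 2 and 5, and LysMCre replicates 3 and 4 lay below them. The log2 fold change of 0.12 had a 95% interval of −0.14 to 0.37 (adjusted p = 0.788 from limma), so that a 1.5-fold change in either direction fell outside it.

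Il15 (chromosome 8, 82331624 to 82403252), a growth factor for NK cells and memory T cells, had values of 7.83, 6.67, 7.88 and 7.92 in LysMCre;Arntfl/fl macrophages, against 8.01, 7.74, 7.89, 8.06 and 8.02 in LysMCre macrophages. Replicate 2 stood apart from the other LysMCre;Arntfl/fl arrays, which lay within the range of the controls. The log2 fold change of −0.37 (95% interval −0.87 to 0.14, adjusted p = 0.606 from limma) was −0.07 without replicate 2.

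**Figure D2:**
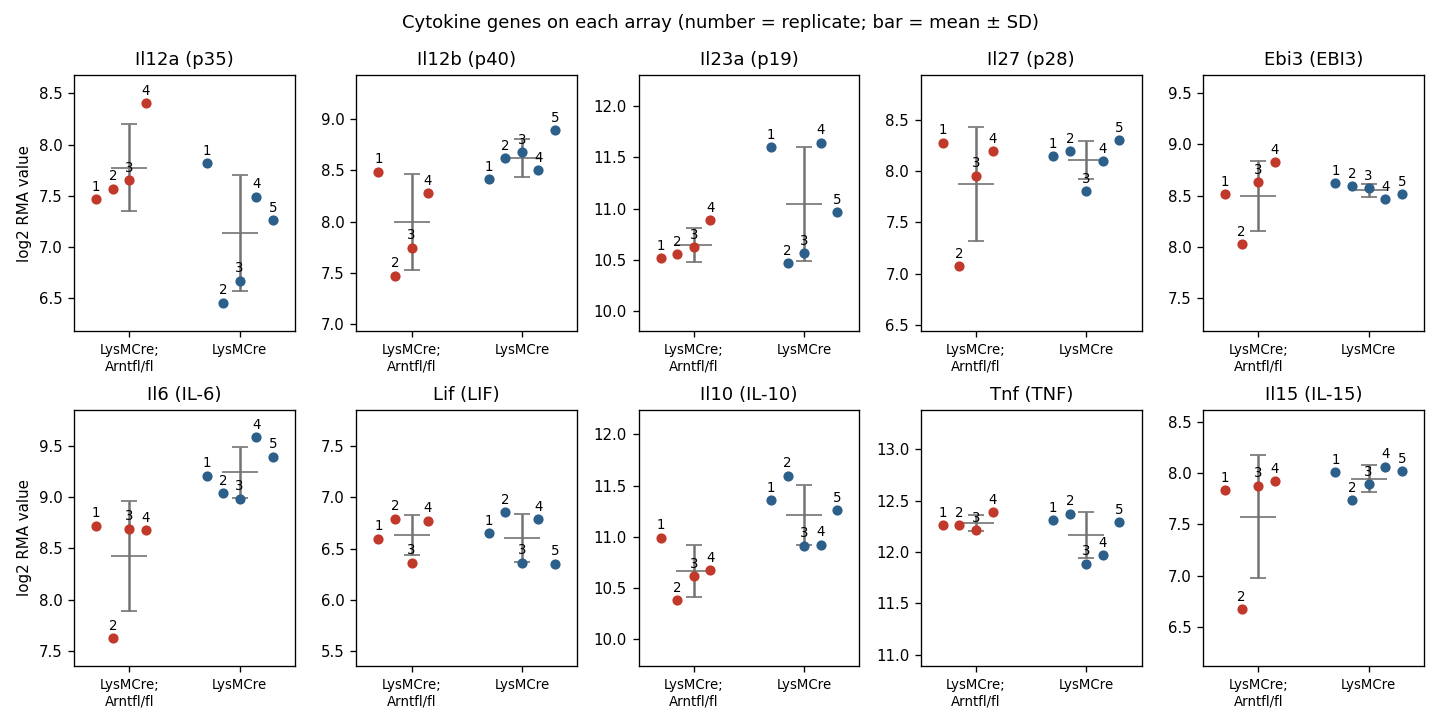
Log2 RMA value of each cytokine gene (vertical axis, 2.5 log2 units in every panel) on each array, with LysMCre;Arntfl/fl (red) left of LysMCre (blue), replicate numbers above the points and bars for mean ± SD (n = 4 and 5). Il6 is the panel without overlap, and LysMCre;Arntfl/fl replicate 2 is the lowest point for Il12b, Il27, Ebi3, Il6, Il10 and Il15.

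One array carried much of the spread within LysMCre;Arntfl/fl macrophages. Replicate 2 had the lowest of all 9 values for 6 of the 10 genes, Il12b, Il27, Ebi3, Il6, Il10 and Il15, but not for Il12a, Il23a, Lif or Tnf. The share of all probe sets that were lowest on this array was not computed, so the count describes the 10 genes only. On the same array the means of the macrophage markers (10.90), of the dendritic cell markers (7.01) and of the T and NK cell markers (6.75) were also the lowest of the 9. Other markers went the other way there: Itgam (12.42), F13a1 (10.54) and Fn1 (12.10) were the highest of the 9. The fibroblast mean (8.74) was the highest of its genotype. Without this array, 6 of the 10 genes had a negative log2 fold change.

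Some members also varied together within genotypes. After the genotype means were taken off, Il6 and Il15 correlated with r = 0.94 over the 9 arrays, which share their scaling and their cell mixture, and with 0.76 without LysMCre;Arntfl/fl replicate 2. The pair of Il12a and Il23a had r = 0.91, and between 0.86 and 0.95 when any array was left out. Across the genotypes together that pair had r = 0.40, and Il12a had the higher and Il23a the lower mean in LysMCre;Arntfl/fl macrophages.

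By contrast, the p40 chain did not follow either of its partners, with r = −0.01 for Il12b and Il12a and −0.17 for Il12b and Il23a. Il27 had r = 0.80 with Ebi3 and 0.88 with Il15, yet −0.10 and 0.09 without LysMCre;Arntfl/fl replicate 2. Il10 and Tnf had r = 0.74, and between 0.64 and 0.90 when any array was left out. Over the 45 pairs of members the median was 0.30, and 33 pairs were positive. The median over pairs of other genes on these arrays was not computed.

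Il10 tracked the macrophage markers closely. Its r with the mean of the 12 macrophage markers was 0.99 within genotypes, and not below 0.99 when any array was left out. That mean ranged from 10.90 to 11.24 in LysMCre;Arntfl/fl and from 11.06 to 11.46 in LysMCre macrophages, so the genotypes overlapped in it. Tnf had r = 0.77 with the same mean and −0.76 with the mean of the 9 epithelial markers, which ranged from 8.58 to 9.43 in LysMCre;Arntfl/fl and from 7.47 to 10.15 in LysMCre macrophages.

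Other members correlated with other marker means, and the values named are larger ones among those of every member with every list. Il23a had r = 0.86 and Il12a 0.73 with the mean of the 7 monocyte markers, which ranged from 9.24 to 9.49 in LysMCre;Arntfl/fl and from 8.77 to 9.50 in LysMCre macrophages. Il6 had r = 0.87 and Il15 0.85 with the mean of the 9 dendritic cell markers, or 0.64 and 0.71 without LysMCre;Arntfl/fl replicate 2. That mean ranged from 7.01 to 7.40 in LysMCre;Arntfl/fl and from 7.25 to 7.58 in LysMCre macrophages. Other lists ran closer once LysMCre;Arntfl/fl replicate 2 was left out. Il15 then had r = 0.92 with the monocyte mean. Il6 then had 0.84 with the neutrophil mean and 0.89 with the mean of the 5 eosinophil markers. Of those 5, only 1 exceeded the unspecific level on every array. Lif had r = −0.85 with the mean of the 6 B and plasma cell markers. With the mean of the 8 T and NK cell markers, Lif had −0.78, Il6 0.70 and Il15 0.69. The last 2 were 0.42 and 0.46 without LysMCre;Arntfl/fl replicate 2. Il27 and Il12b had 0.70 and 0.63 with the dendritic cell mean, or 0.035 and 0.23 without that array. Within genotypes Il6 had r = 0.64 with the neutrophil mean, whereas between genotypes Il6 was lower and that mean higher in LysMCre;Arntfl/fl macrophages. These values are descriptions of 9 arrays, and the part of the cell mixture in the cytokine differences was not tested.

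**Figure D3:**
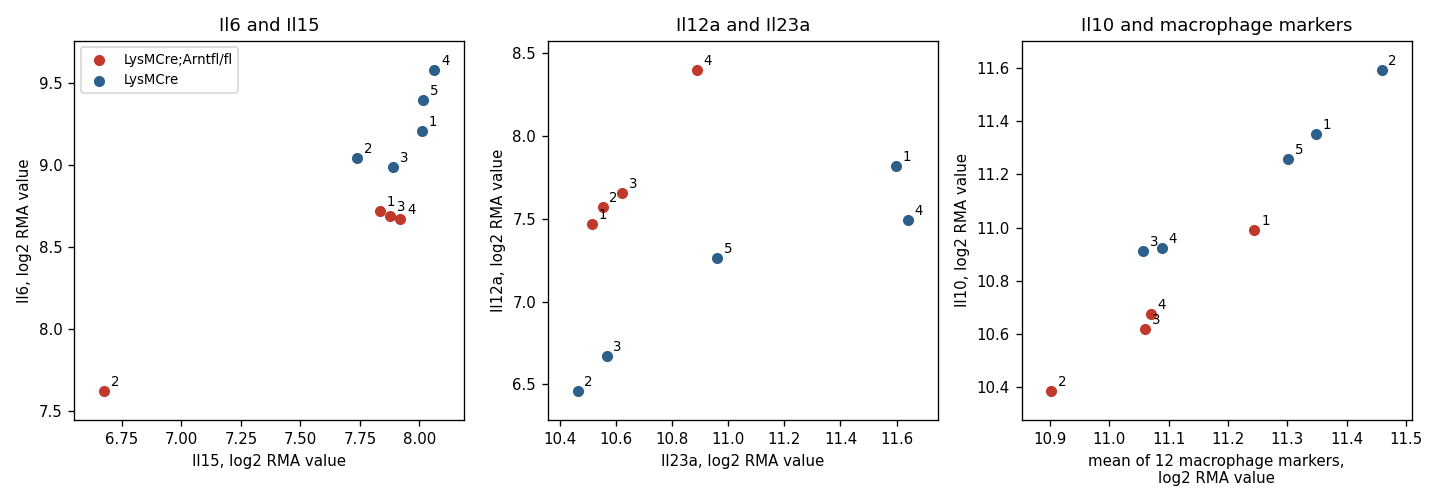
Each point is 1 array (LysMCre;Arntfl/fl red, LysMCre blue, with replicate numbers), and all axes are log2 RMA values: Il6 against Il15, Il12a against Il23a, and Il10 against the mean of 12 macrophage markers. Within each genotype, Il12a and Il23a are high on the same arrays, and so are Il10 and the macrophage mean. Il10 is lower in LysMCre;Arntfl/fl replicates 3 and 4 than in LysMCre replicates 3 and 4, whose macrophage means are similar. Between these arrays single markers differ both ways, with Itgam higher and C1qa and Cx3cr1 lower in LysMCre;Arntfl/fl. A similar mean therefore does not show a similar share of macrophages, and the part of the cell mixture was not tested. LysMCre;Arntfl/fl replicate 2 sits at the lower left for Il6 and Il15.

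For the members with the widest range over the arrays, Il6, Il12a and Il12b, the genes with the most similar pattern were sought among 19394 genes by Pearson r over the 9 arrays. For Il6 these were Hspa1b (r = 0.97), a heat shock protein, Btg2 (0.97), an early response gene that restrains proliferation, and Pomp (0.96), which helps to assemble the proteasome. For Il12b they were H2-Eb1 (0.97), a chain of MHC class II, Ermap (0.97) and Fhad1 (0.96). For Il12a they were Plekha7 (0.96), Mier3 (0.94) and Tti2 (0.94). Since these genes were chosen for their pattern over all 9 arrays, the genotype difference included, their values describe that pattern only. Btg2 had values of 10.27, 9.67, 10.35 and 10.24 in LysMCre;Arntfl/fl macrophages, against 10.52, 10.67, 10.60, 10.89 and 10.65 in LysMCre macrophages. H2-Eb1 had 12.80, 12.13, 12.41 and 12.64 in LysMCre;Arntfl/fl macrophages, against 12.85 or more on each of the 5 LysMCre arrays.

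The genes that act before and after these cytokines were described by 8 lists with 123 genes measured, and a value in parentheses after a gene of these lists is its log2 fold change. Of these, 0 were called by limma and 0 by the methods' t-test after adjustment. An unadjusted p below 0.05 was reached by 39 in limma (31.7%, against 11.5% of all probe sets) and by 37 in the methods' t-test (30.1%, against 10.8%). Among genes taken by their brightest probe set, as these were, 2980 of 22180 reached it in limma. The lists were chosen with earlier results of these data known. Most listed genes exceeded the unspecific level on all 9 arrays, whereas the array medians over all probe sets, 5.98 to 6.04, lay near it. These shares therefore describe the lists only. Among the transcription factors of cytokine genes, log2 fold changes were positive for 10 and negative for 15 (median −0.15), and 7 of the 25 measured showed lower values without overlap, where 2.22% of all probe sets did. These 7, with their log2 fold changes, were Batf3 (−0.72), Irf4 (−0.61), Irf8 (−0.55), Irf1 (−0.51), Egr1 (−0.42), Nfatc1 (−0.33) and Jund (−0.26). Without LysMCre;Arntfl/fl replicate 2, log2 fold changes were positive for 11 and negative for 14 (median −0.11). Then 3 genes, Nfkb2, Relb and Batf, showed higher values without overlap. With all arrays 0 did, against 2.52% of all probe sets. Fewer arrays make a lack of overlap easier to reach, and the share of all probe sets without that array was not computed. Irf8, Irf1, Egr1, Nfatc1, Jund and Relb were chosen for the text after their values were seen. Batf (0.33) and Nfkb2 (0.30), which encodes a subunit of the alternative NF-κB pathway, had the highest log2 fold changes of the list.

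Irf1 and Irf8 encode interferon regulatory factors known to act on the p40 and p35 promoters. Irf1 had values of 8.85, 8.43, 8.79 and 8.60 in LysMCre;Arntfl/fl macrophages, against 9.05, 9.27, 9.28, 9.17 and 9.10 in LysMCre macrophages. All 4 lay below all controls (log2 fold change −0.51, adjusted p = 0.0696 from limma). Irf8 had values of 9.34, 9.14, 9.64 and 9.38 in LysMCre;Arntfl/fl macrophages, against 9.85, 10.21, 9.88, 9.81 and 9.86 in LysMCre macrophages, and these did not overlap either (log2 fold change −0.55, adjusted p = 0.0872 from limma). Batf3, which dendritic cells of the cross-presenting lineage need and which also stands among the dendritic cell markers, had values of 7.38, 7.19, 7.80 and 7.62 in LysMCre;Arntfl/fl macrophages, against 7.99, 8.67, 8.34, 7.89 and 8.17 in LysMCre macrophages (log2 fold change −0.72, adjusted p = 0.109 from limma). The part of dendritic cells and neutrophils in these values was not tested.

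Among 13 receptor genes measured, log2 fold changes were positive for 5 and negative for 8 (median −0.06), or 7 and 6 (median 0.0062) without LysMCre;Arntfl/fl replicate 2. Tnfrsf1b, which encodes TNF receptor 2, had values of 11.62, 11.81, 11.71 and 11.95 in LysMCre;Arntfl/fl macrophages, against 11.50, 11.36, 11.11, 11.54 and 11.31 in LysMCre macrophages. All 4 lay above the controls (log2 fold change 0.41, adjusted p = 0.148 from limma). Il10rb, the accessory chain of the IL-10 receptor, was likewise higher without overlap (0.23), and at the other end stood Lifr (−0.43), the LIF receptor, and Il12rb2 (−0.35), the signaling chain of the IL-12 receptor.

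In the JAK and STAT list, 4 of 9 were positive and 5 negative (median −0.03). Stat4 (−0.45), which relays IL-12, and Stat2 (−0.42), which relays interferon, were lowest, Stat2 without overlap, and Stat6 (0.24), which relays IL-4, and Tyk2 (0.07) were highest, Stat6 without overlap. Without LysMCre;Arntfl/fl replicate 2 the split turned to 7 positive and 2 negative (median 0.05). Of 22 feedback inhibitors, 5 were positive and 17 negative (median −0.12), or 8 and 14 without that array. Etv3 (−0.62) and Cish (−0.62) were lowest, and Tnip1 (0.37), a partner of A20 on the NF-κB pathway, and Zc3h12a (0.13), whose product degrades Il6 mRNA, were highest. Zfp36, whose product promotes the decay of Tnf mRNA, had values of 12.15, 12.03, 12.15 and 12.09 in LysMCre;Arntfl/fl macrophages, against 12.48, 12.36, 12.37, 12.24 and 12.32 in LysMCre macrophages, and was named after its values were seen (log2 fold change −0.25, adjusted p = 0.219 from limma).

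In the list of TNF shedding and signaling, 11 of 20 were positive and 9 negative (median 0.08). Traf5, an adaptor of TNF family receptors, had values of 6.97, 6.64, 6.83 and 6.97 in LysMCre;Arntfl/fl macrophages, against 7.60, 7.81, 7.40, 7.25 and 7.35 in LysMCre macrophages, without overlap (log2 fold change −0.63, adjusted p = 0.0652 from limma). Timp3 (−0.50), an inhibitor of the TNF sheddase, was next lowest, and Traf2 (0.38) and Ikbkg (0.34) were highest.

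Of the other TNF superfamily ligands, 6 of 15 were positive and 9 negative (median −0.19), or 8 and 7 (median 0.04) without LysMCre;Arntfl/fl replicate 2. Tnfsf13b (−0.67), the B cell survival factor BAFF, and Tnfsf9 (−0.55) were lowest, and Ltb (0.65), the lymphotoxin β chain, and Lta (0.27) highest, the last of them below the unspecific level on every array. So were Cd70, Eda and Cd40lg, whose value was the median of the list. Tnfsf18 exceeded the level on 2 and Tnfsf11 on 3 of 9 arrays. Of the other IL-6 and IL-10 family cytokines, 3 of 9 were positive and 6 negative (median −0.19). Osm, which encodes oncostatin M, a relative of LIF, had values of 7.49, 7.35, 7.38 and 7.52 in LysMCre;Arntfl/fl macrophages, against 8.09, 7.74, 7.63, 7.84 and 7.61 in LysMCre macrophages, without overlap (log2 fold change −0.35, adjusted p = 0.217 from limma). Il22 (−0.50) was below the unspecific level on every array, and Il19 (0.22), above that level on 2 of 9 arrays, and Ctf1 (0.06) had the highest log2 fold changes. Il20, Il24 and Il31 were also below the level on every array, and Il11, whose value was the median, exceeded it on 3 of 9.

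The lymphocyte genes that IL-12, IL-23 and IL-15 are known to induce were measured as a sign of such cells in the sort. Of 11 measured, 1 was positive and 10 negative (median −0.21), or 5 and 6 (median −0.08) without LysMCre;Arntfl/fl replicate 2. The lowest were Klrk1 (−0.72), a receptor of NK cells, and Il17a (−0.70), which exceeded the unspecific level on 8 and on 6 of 9 arrays. The highest were Il21 (0.11), which was below that level on every array, and Ifng (−0.07), which exceeded it on 8 of 9. Il22 and Csf2 also lay below the level on every array. The mean of the T and NK cell markers ranged from 6.75 to 7.55 in LysMCre;Arntfl/fl and from 7.00 to 7.87 in LysMCre macrophages, and its part in these values was not tested.

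**Figure D4:**
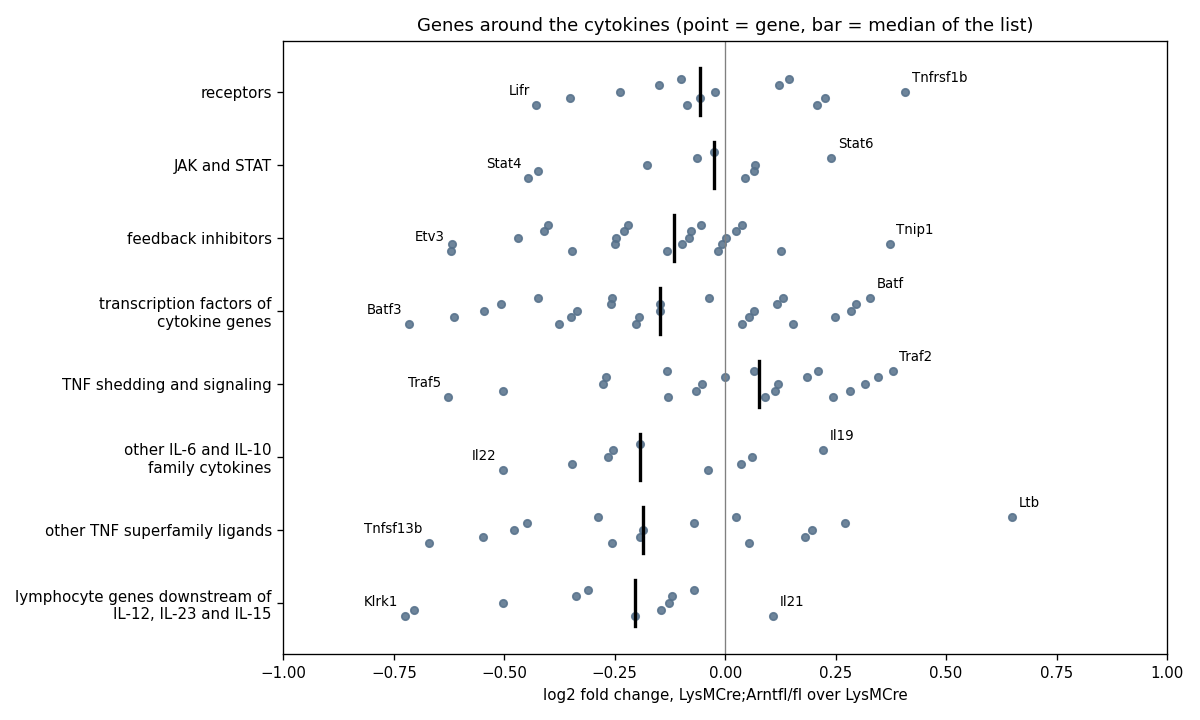
Log2 fold change, LysMCre;Arntfl/fl over LysMCre, on the horizontal axis for every measured gene (point) of the 8 lists around the cytokines, with a bar for the median of each list. The medians lie between −0.21 and 0.08, and the genes at the ends of each list are named.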

How the data were processed

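Macrophages of 9 mice were measured on Affymetrix Mouse Gene arrays, with 1.5 ng of RNA per sample. Per the labels and the methods, the authors processed the arrays with Expression Console and RMA, and the deposited log2 values, 1 for each probe set on each array, are background-corrected and normalized between arrays; Partek 6.6 stands in the processing notes. Each array held 34365 values from 2.26 to 14.27 with medians of 5.98 to 6.04, and 23521 probe sets carried 1 symbol, 1820 several and 9024 none. Differences between LysMCre;Arntfl/fl and LysMCre were fitted with lmFit and eBayes of limma 3.58.1 (R 4.3.3). The p-values were adjusted over all probe sets by Benjamini-Hochberg, and a call needed an adjusted p under 0.05 with over 1.5-fold change; SAM, named in the methods, was not rerun. The fit was tested on simulated data. Replicates are separate mice, and their number limits the precision. The members and lists were chosen with earlier results of these data known. Named genes were all members, the called genes and the 2 highest and 2 lowest of each list, the 3 genes most like the 3 widest-ranging members, and Arnt; others are said to be chosen later. The results were repeated with other variance settings, scalings, filters and tests and without each array. Correlations without single arrays and lists without LysMCre;Arntfl/fl replicate 2 were added after the data were seen. Arrays were not paired by their replicate number, with correlations of −0.120, −0.0715, −0.000463 and 0.166 between same-numbered arrays. Promoter sequences came from RefSeq GRCm38.p6, which had an entry for 6 of the 10 genes.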

Additional observations from a re-analysis of the deposited data

Results flagged for a closer look

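In LysMCre;Arntfl/fl macrophages, replicate 2 stood apart from the other 3 arrays for Il6, with 7.62 against 8.67 to 8.72, and for Il15, with 6.67 against 7.83 to 7.92 (log2 values). In both, the gap to the nearest array exceeded Dixon's 95% critical value for 4 samples. These were 2 of 22 groups of member probe sets tested, and chance gives about 1 in 20.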

How the results depend on the processing

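No member was called under any setting tried. Of the members' log2 fold changes under other settings, 173 kept their direction and 8 turned, all of them small: Ebi3 was 0.022 with array weights and −0.16 to 0.11 without 1 array, Lif was −0.033 with the replicate number as a block and −0.033 to 0.12 without 1 array, and Il27 was −0.37 to 0.034 without 1 array. The counts over all probe sets, 49 higher and 52 lower, were 87 and 80 with array weights, 98 and 106 over the brighter probe sets only, 3 and 2 with the replicate number as a block, 1 and 3 with the methods' t-test, and 0 to 74 and 1 to 75 without 1 array. The causes were not tested. With 4 and 5 arrays, the 95% intervals of 7 members include a 1.5-fold change, and those of Ebi3, Lif and Tnf do not.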
